A study of Mus musculus with 6 samples.

Results

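The genes described here are the core components that carry a signal from RAS activation to ERK: the RAS exchange factor genes Rasgrp1, Rasgrp3 and Sos1, the RAS gene Nras, the RAF kinase gene Braf, the MEK kinase gene Map2k1 and the ERK kinase gene Mapk3. They were chosen by name from the platform's gene annotation, with the probe set of highest mean over the 6 arrays standing for each gene. Of these 7 genes, 6 had a named probe set, 1 each, among 19938 named genes and 35556 probe sets in all. A gene counts as named or measured only through a probe set that lists its symbol alone. Mapk3 had no such probe set in the annotation used and was not analysed here. Probe sets that list several symbols were left out, so one that Mapk3 shares with another gene would be missed. Expression was measured on 1-colour Affymetrix arrays in pre-B cells of 129SvEv mice transformed by BCR-ABL1, the oncogenic kinase that the Philadelphia chromosome creates in acute lymphoblastic leukemia (ALL). The genotype of 3 samples was Etv5 wild type and that of the other 3 was Etv5 knockout; all 6 carried BCR-ABL1, and no age or treatment is given. The labels do not state the deleted exons, how BCR-ABL1 was introduced, or whether samples of 1 genotype are separate mice or cultures; the p-values therefore reflect the spread among these 6 samples alone, and that spread may be technical.

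RAS proteins are molecular switches that are active when bound to GTP. Exchange factors load them with GTP, active RAS recruits RAF kinases to the membrane, RAF phosphorylates MEK and MEK phosphorylates ERK. In B cell precursors this cascade acts downstream of the pre-B cell receptor and of growth factor receptors, and BCR-ABL1 engages it through adaptors such as GRB2. Etv5 belongs to the ETS transcription factors, and its subgroup is known as a nuclear output of ERK signalling.

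Values are log2 signals after RMA (robust multi-array average), and a difference of 1 is a doubling. Array medians lay between 7.79 and 7.84, and the median change over all probe sets was -0.00098. Of all probe sets, 3.08% passed limma's moderated test at a Benjamini-Hochberg adjusted p of 0.05, as did 4.43% of named genes. Etv5 itself has a pair of probe sets that disagreed. One fell from 9.30, 9.52 and 9.27 on the wild-type arrays to 8.97, 8.91 and 8.92 in the knockout (log2 change -0.43, limma adjusted p = 0.0467), a call that was lost whichever single sample was left out (highest adjusted p 0.18). The other, assigned to Etv5 by the annotation, had a log2 difference of 0.28 (adjusted p = 0.13). Whether it reports the Etv5 gene was not tested, and where the probes lie relative to the deletion is not given. All 13 measured B cell precursor markers had means above the median of all probe sets (7.81), with the surrogate light chain gene Igll1 highest at 14.27. Of the markers of other cell types, 0 of 10 for T and NK cells, 1 of 11 myeloid (Lyz2, 8.73), 2 of 5 erythroid and megakaryocyte and 4 of 10 stromal and endothelial genes (highest Pecam1, 10.59) did.

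Among the 6 measured core genes, only Rasgrp1 passed the test. Rasgrp1, a diacylglycerol-activated RAS exchange factor of lymphocytes, gave 11.49, 11.49 and 11.56 on the wild-type arrays and 12.06, 12.11 and 12.03 on the knockout arrays. The 3 knockout values lay above all 3 wild-type values, with a gap several times the spread inside either group (wild-type SD 0.039 and knockout SD 0.043, n = 3 each). The rise was 1.47-fold, a log2 change of 0.55 ± 0.052 (SE), with a 95% interval of 1.34-fold to 1.60-fold and a limma adjusted p of 0.00357. The other 5 genes did not pass, so 1 of 6 measured core genes rose and none fell, beside 2.42% of all named genes that rose. With 6 genes, 1 call is too few to read as a share of the group. Rasgrp1 kept its call in each of 14 alternative fits (log2 change 0.53 to 0.58, adjusted p 0.000276 to 0.0431) and at an adjusted p of 0.01. In size the rise was an ordinary one: 291 of the 483 risen genes changed by more, and their median change was 0.63. By p-value, 257 of the 19938 named genes ranked ahead of it. In bulk RNA a change in the share of cells that express a gene and a change in RNA per cell cannot be told apart.

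**Figure D1:**
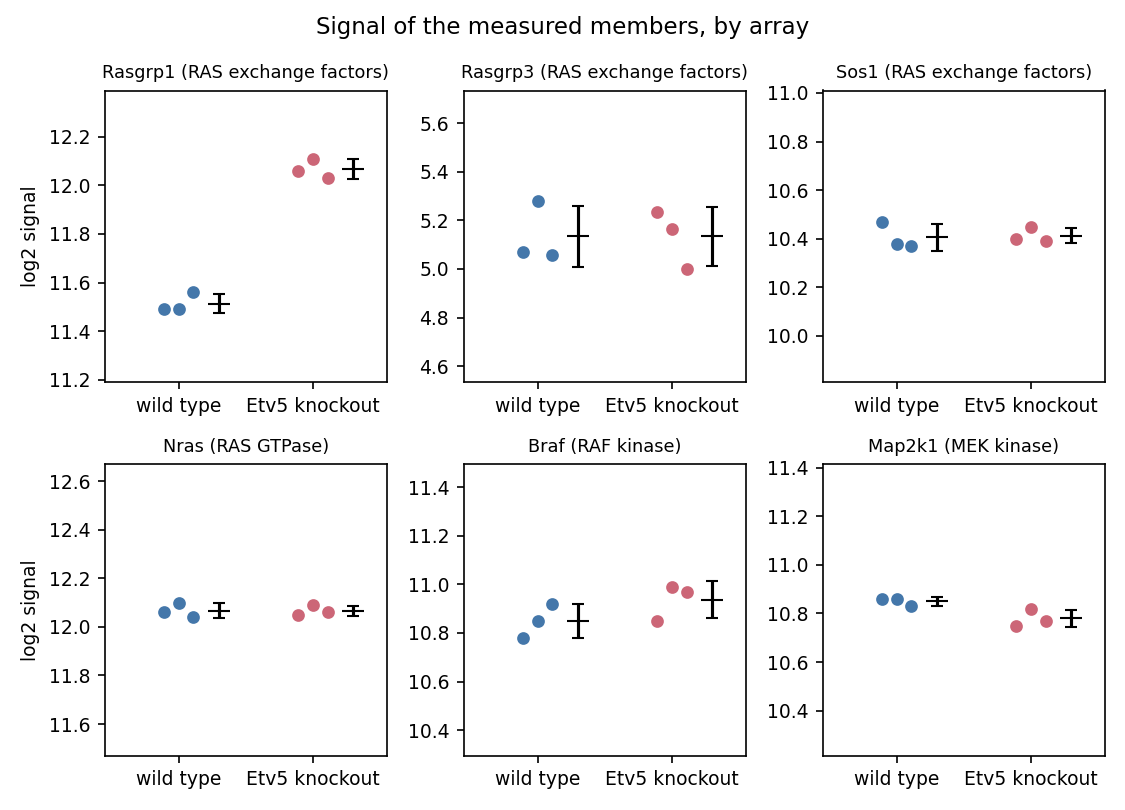
Log2 signal (vertical axis, each panel spanning 1.2 log2 units) of the 6 measured core genes on the 3 wild-type (blue) and 3 Etv5 knockout (red) arrays; the black mark is the mean with its SD. The Rasgrp1 knockout arrays lie at 12.03 to 12.11, above the wild-type arrays at 11.49 to 11.56, while the groups of Rasgrp3, Sos1, Nras and Braf overlap.

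The other exchange factors did not pass. Sos1, the widely expressed exchange factor that GRB2 brings to activated receptors, gave 10.47, 10.38 and 10.37 on the wild-type arrays and 10.40, 10.45 and 10.39 on the knockout arrays. The groups overlapped, and the log2 difference was 0.0045 ± 0.053 (SE, limma adjusted p = 0.997), with an interval that allows at most a 1.10-fold change. Rasgrp3, the RasGRP relative of Rasgrp1 that is best known from B cells, was dim, at 5.07, 5.28 and 5.06 on the wild-type arrays and 5.23, 5.17 and 5.00 on the knockout arrays. Only 8.35% of probe sets had a mean as low or lower, and the table holds no detection calls, so this signal was not shown to be above background. Its groups overlapped, with a log2 difference of -0.00074 and a 95% interval of -0.22 to 0.22. RMA compresses differences of dim probe sets.

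The bases before the start sites of Rasgrp1, Sos1 and Map2k1 are shown because Etv5 is an ETS factor and these 3 genes span the outcomes seen here: the gene that rose, an exchange factor with no detected change, and the gene with the most negative difference. Each run covers the 250 bases upstream of the annotated start, 5′ to 3′ on the gene's strand, from RefSeq on GRCm38.p6. Rasgrp1 is at chr2:117342878-117343127 (minus strand), Sos1 at chr17:80480454-80480703 (minus strand) and Map2k1 at chr9:64253606-64253855 (minus strand). Capitals mark the ETS core letters GGAA, or TTCC where the match is on the opposite strand.
Rasgrp1: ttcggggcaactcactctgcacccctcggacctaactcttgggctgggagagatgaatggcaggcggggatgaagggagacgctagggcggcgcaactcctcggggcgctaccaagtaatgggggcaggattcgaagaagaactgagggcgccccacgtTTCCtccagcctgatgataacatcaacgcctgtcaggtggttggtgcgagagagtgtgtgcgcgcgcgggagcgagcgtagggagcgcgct
Sos1: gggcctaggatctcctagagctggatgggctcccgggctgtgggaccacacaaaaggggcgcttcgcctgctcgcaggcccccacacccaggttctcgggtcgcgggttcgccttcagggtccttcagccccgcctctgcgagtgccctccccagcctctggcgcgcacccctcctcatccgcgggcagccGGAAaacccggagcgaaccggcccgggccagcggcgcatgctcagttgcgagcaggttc
Map2k1: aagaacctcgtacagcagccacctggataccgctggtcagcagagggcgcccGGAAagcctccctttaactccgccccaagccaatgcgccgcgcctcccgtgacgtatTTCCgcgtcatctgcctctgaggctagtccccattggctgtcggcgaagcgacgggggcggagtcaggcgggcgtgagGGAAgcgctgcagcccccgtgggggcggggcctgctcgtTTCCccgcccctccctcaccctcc

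In this window Rasgrp1 held 1 match to GGAA, on the opposite strand 91 bases before the start, and none to the longer CCGGAA. Sos1 also held 1 match to GGAA, and it lies inside a CCGGAA that begins 61 bases before the start. Map2k1 held 4 matches to GGAA, the farthest of them inside a CCGGAA that begins 200 bases before the start. The promoter windows of Nras and Braf held 2 and 3 matches to GGAA and none to CCGGAA. Rasgrp3 has a pair of annotated starts. The window at the first held 7 matches to GGAA and 1 to CCGGAA, and that at the second held 1 and 0. Both strands were searched, and every CCGGAA also counts as a GGAA. GGAA occurred in 93.4% of 32851 promoter windows of the same length, with a median of 3 matches, and 23.2% of windows held 0 or 1. CCGGAA occurred in 12% of them. These are matches of letters only and show no binding.

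Downstream of the exchange factors, Nras, Braf and Map2k1 did not pass the test. Nras, one of the RAS switch proteins and a frequent oncogene of blood cancers, was bright and steady, at 12.06, 12.10 and 12.04 on the wild-type arrays and 12.05, 12.09 and 12.06 on the knockout arrays. Its 6 arrays spanned only 0.053 log2 units, the narrowest range of the 6 genes. The log2 difference was -0.00063 ± 0.047 (SE, limma adjusted p = 0.999), and the interval allows at most a 1.08-fold change. Braf, the RAF kinase with the strongest activity towards MEK, gave 10.78, 10.85 and 10.92 on the wild-type arrays and 10.85, 10.99 and 10.97 on the knockout arrays. The lowest knockout value equals the middle wild-type value at this rounding, so the groups overlapped. Its log2 difference was 0.086 (95% interval -0.073 to 0.24, adjusted p = 0.81), which allows up to a 1.19-fold rise.

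Map2k1, which encodes the kinase MEK1 that activates ERK, gave 10.86, 10.86 and 10.83 on the wild-type arrays and 10.75, 10.82 and 10.77 on the knockout arrays. All 3 knockout values lay below the wild-type values, but the gap was small: the log2 difference was -0.072 ± 0.048 (SE), and the limma adjusted p was 0.752. Map2k1 and Rasgrp1 were thus 2 of 6 core genes whose groups did not overlap, beside 20.5% of all named genes. Knockout sample 2 had the highest knockout value in 5 of the 6 core genes, all but Rasgrp3, although its array median of 7.83 was within the range of the other arrays. The share of all named genes in which this sample was highest was not computed, so this is not shown to be particular to the core genes.

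The change of Rasgrp1 was set against that of each other core gene through the difference of their log2 signals on each array. The change of Rasgrp1 exceeded that of Sos1 and of Nras by 0.55 each, Braf by 0.47 and Map2k1 by 0.62. It also exceeded the difference of Rasgrp3 by 0.55, but that signal was not shown to be above background, so this comparison says little of Rasgrp3 itself. In all 5 comparisons the knockout arrays lay apart from the wild-type arrays, and the two-sided exact permutation test gave p = 0.10, the smallest that 3 samples against 3 allow (adjusted p = 0.188 over the 15 pairs of core genes). Exact tests of this size cannot pass 0.05. All 5 comparisons share the Rasgrp1 values, whose groups lie farther apart than the whole range of any other core gene (0.053 for Nras to 0.278 for Rasgrp3). Their separation therefore follows from the rise of Rasgrp1 and adds nothing to it. Among the other 10 pairs, 3 were also apart, with the same exact permutation p of 0.10, and each includes Map2k1: its difference was lower than that of Braf by 0.16, of Sos1 by 0.077 and of Nras by 0.072. These 3 share the Map2k1 values and are not separate results, and no share over other gene pairs was computed.

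The measured relatives of the core genes also did not pass. Rasgrp2, a calcium-regulated exchange factor for RAP1, gave 11.98, 11.93 and 12.01 on the wild-type arrays and 11.95, 12.18 and 12.04 on the knockout arrays, with overlapping groups and a log2 difference of 0.08 (limma adjusted p = 0.864). Rasgrp4, best known from mast cells, differed by 0.017 and Sos2 by -0.055 (adjusted p = 0.99 and 0.892). Araf, another RAF kinase, differed by 0.10 (adjusted p = 0.812) and Map2k2, which encodes MEK2, by 0.04 (adjusted p = 0.944). For these 5 genes the 95% intervals reached from -0.21 to 0.29 log2 units, so a change as large as that of Rasgrp1 lies outside each of them. Rasgrp4 had means of 7.558 (wild type) and 7.575 (knockout), below the median of all probe sets (7.81). That signal was not shown to be above background, so the interval says little of Rasgrp4 itself.

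**Figure D2:**
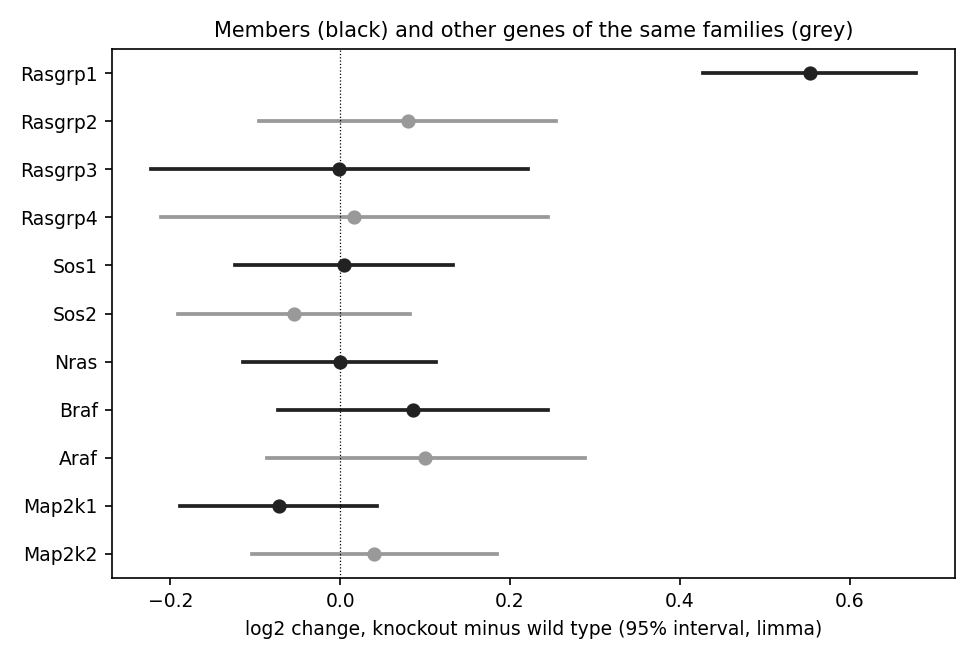
Log2 change, knockout minus wild type (horizontal axis), with limma's 95% interval, of the 6 measured core genes (black) and 5 measured relatives (grey). The interval of Rasgrp1, 0.43 to 0.68, is the one that excludes 0.

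Around the core, 85 of 95 listed pathway genes were measured. Of these, 7 rose, 2 fell and 76 did not pass, beside 4.43% of named genes called in either direction. The 76 include the targeted gene Etv5, counted at its brighter probe set. The list's median change was 0.029, against -0.0039 over all named genes, and 22 of its genes had an unadjusted limma p under 0.05 (25.9%, beside 13.4% of named genes). The lists were chosen with earlier results of these data known, so these shares describe the list and cannot show an excess over other genes. The count depended on single samples: 1 gene passed without wild-type sample 1, 2 without wild-type sample 2, 5 without wild-type sample 3, 6 without knockout sample 1, 4 without knockout sample 2 and 2 without knockout sample 3.

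Diacylglycerol is the lipid that recruits RasGRP proteins to membranes, and 2 genes of its supply and removal, Plcg1 and Dgkh, rose. Plcg1, a phospholipase C that makes diacylglycerol, gave 10.66, 10.63 and 10.78 on the wild-type arrays and 11.41, 11.50 and 11.45 on the knockout arrays. The groups lay well apart, and the rise was 1.70-fold (log2 change 0.76 ± 0.061, limma adjusted p = 0.002). Like Rasgrp1, Plcg1 passed in each of the 14 alternative fits (adjusted p 0.000257 to 0.0241). Plcg2, the phospholipase C of B cell receptor signalling, was bright and did not pass, with 12.42 ± 0.016 in wild-type and 12.25 ± 0.046 in knockout samples (SD, n = 3; adjusted p = 0.209). Dgkh, a diacylglycerol kinase, which removes the lipid, rose by 0.29 from a signal of 7.35 (adjusted p = 0.0286). The Dgkh means of 7.354 (wild type) and 7.646 (knockout) lay below the median of all probe sets (7.81). That signal was not shown to be above background. Dgka, the diacylglycerol kinase best known from lymphocytes, gave 13.24, 13.30 and 13.34 on the wild-type arrays and 13.01, 13.09 and 13.00 on the knockout arrays, and missed the threshold (log2 difference -0.26, adjusted p = 0.0806). Of the protein kinase C genes, which share this lipid activator, Prkce differed by 0.37 and Prkca by -0.22, without passing (adjusted p = 0.0757 and 0.108). In all, 2 of 13 genes of this list rose and 11 did not pass, none having fallen; the median change was -0.05.

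Upstream of RAS, a pair of the Gab docking proteins rose. Gab3 gave 8.76, 8.68 and 8.89 on the wild-type arrays and 9.37, 9.51 and 9.41 on the knockout arrays, a 1.57-fold rise with groups well apart (limma adjusted p = 0.00805). Gab1 rose from 8.39, 8.26 and 8.34 to 8.66, 8.75 and 8.80 (1.33-fold, adjusted p = 0.0252). Gab2, which is known to link BCR-ABL1 to RAS, differed by 0.18 in the same direction, without passing (adjusted p = 0.451). Grb2, the adaptor that binds SOS proteins, differed by 0.0015 and the phosphatase gene Ptpn11, which promotes RAS activation, by 0.067 (adjusted p = 0.999 and 0.862). Of 9 measured adaptors, 2 rose, none fell and 7 did not pass.

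None of the 5 measured RAS-like GTPase genes passed. Rras had the smallest p, with a log2 difference of 0.26 (limma adjusted p = 0.141), and Rras2 differed by 0.14 (adjusted p = 0.481). Among 9 genes for RAS GTPase-activating proteins, which switch RAS off, Rasal2 fell from 8.65, 8.65 and 8.75 on the wild-type arrays to 7.95, 8.24 and 8.01 on the knockout arrays. The groups did not overlap, and the log2 change was -0.61 ± 0.088 (SE, adjusted p = 0.0187). The other 8 did not pass; Nf1, the neurofibromin gene, differed by -0.05 and Rasa1 by 0.092 (adjusted p = 0.924 and 0.639).

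Among 15 scaffolds and regulators of RAF, MEK and ERK, Cnksr3 rose, Pea15a fell and 13 did not pass. Cnksr3, a member of the CNK scaffold family, rose from 9.47, 9.41 and 9.53 to 9.82, 9.91 and 9.96 (log2 change 0.43, limma adjusted p = 0.0195). Pea15a, which holds ERK in the cytoplasm, fell from 8.62, 8.68 and 8.66 to 8.30, 8.38 and 8.38 (log2 change -0.30, adjusted p = 0.0351). Rgs14, a RAS and RAF binding protein, just missed the threshold with a difference of 0.38 (adjusted p = 0.0545), and the scaffold gene Ksr1 differed by 0.16 (adjusted p = 0.484).

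Downstream, none of 4 measured ERK-activated kinases passed; Mknk1, which acts on the translation factor eIF4E, differed by 0.24 (limma adjusted p = 0.134). Of 23 genes that ERK induces or that feed back on it, the transcription factor gene Egr1 (log2 change 0.61, adjusted p = 0.0193) and the RAS-ERK inhibitor gene Spred1 (0.27, adjusted p = 0.0478) rose and 21 did not pass. The 21 include the targeted gene Etv5, counted at its brighter probe set (0.28, limma adjusted p = 0.13). The other Etv5 probe set fell and passed (-0.43, adjusted p = 0.0467). The phosphatase gene Dusp4 differed by -0.50 (adjusted p = 0.144), with knockout values from 7.84 to 8.32 and wild-type values from 8.51 to 8.67. Of 13 measured genes of the JNK, p38, ERK5 and other MAP kinase modules, none passed limma; 2 had an unadjusted p under 0.05. These were not called; their differences were 0.29 for Mapk7 and 0.25 for Mapk8 (adjusted p = 0.0701 and 0.0843).

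**Figure D3:**
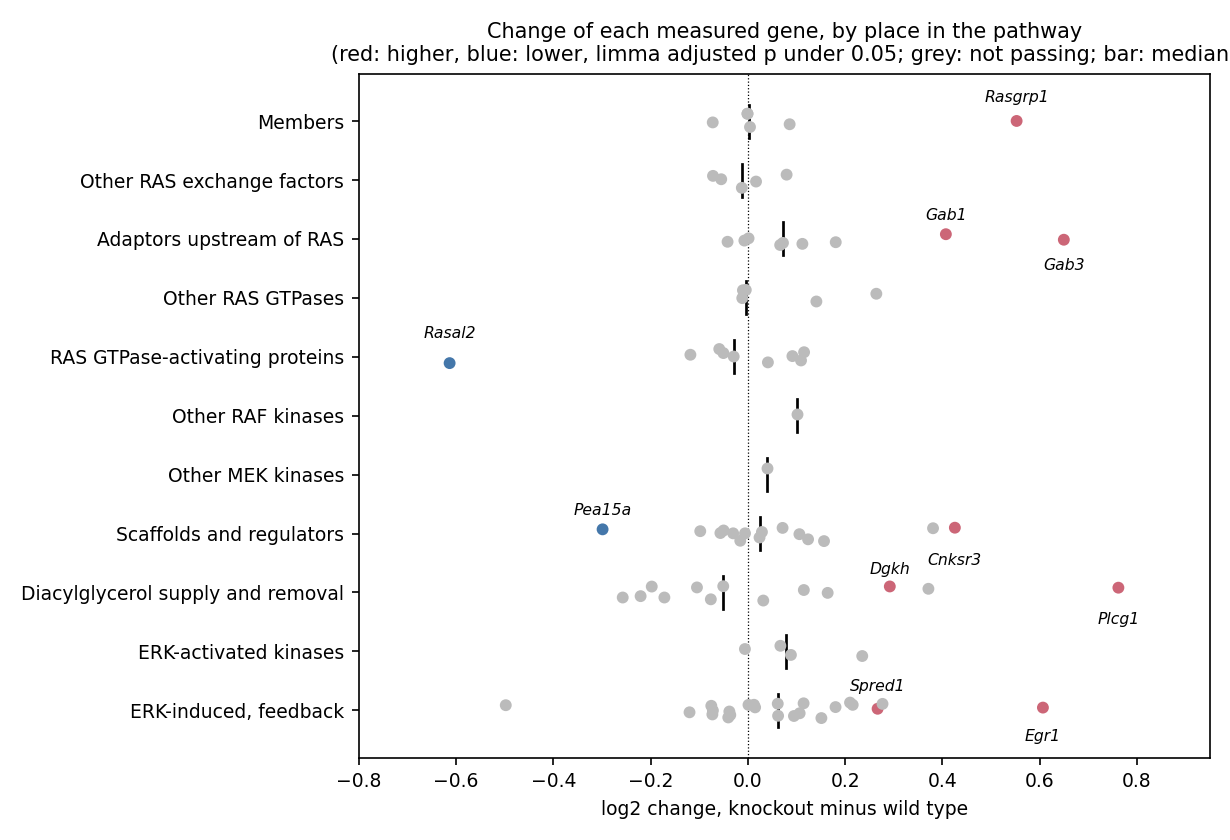
Log2 change, knockout minus wild type (horizontal axis), of the 6 measured core genes and 85 other pathway genes, 1 point per gene, in rows by place in the pathway; vertical bars are row medians. Red points rose and blue points fell at a limma adjusted p of 0.05, and most points lie near 0.

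Most of the 9 pathway calls outside the core were less stable than that of Rasgrp1. Across the 6 leave-one-out fits, Dgkh, Spred1 and Pea15a lost their call in 6, Gab1 and Rasal2 in 5, Cnksr3 in 4, Egr1 in 3 and Gab3 in 1, without wild-type sample 1 (adjusted p = 0.0505). The highest adjusted p in these fits was 0.178 for Spred1, 0.165 for Pea15a and 0.149 for Dgkh. No called gene changed direction in any of the alternatives.

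**Figure D4:**
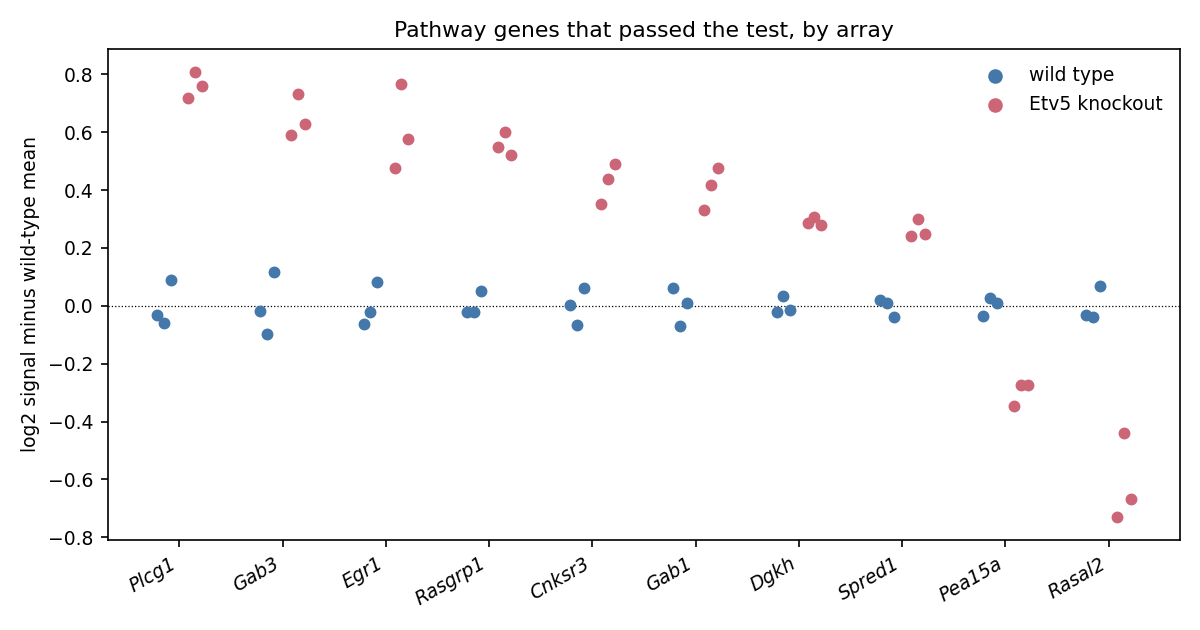
Log2 signal minus the wild-type mean (vertical axis) of Rasgrp1 and the 9 other pathway genes that passed limma, on 3 wild-type (blue) and 3 Etv5 knockout (red) arrays, 1 point per array. The groups lie apart in all 10 genes, with the widest gaps in Plcg1 and the narrowest among the risen genes in Spred1 and Dgkh.

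Rasgrp1 is also expressed in T cells, and markers of T cells and of other cell types were read beside its rise. On the log2 scale, the summed signal of the 10 T and NK cell markers was 10.20 to 10.28 (wild type) and 10.20 to 10.34 (knockout). None of the 10 passed limma, and Cd3g was dimmest at 5.65. Ncr1 (log2 difference 0.34) and Cd4 (-0.19) had an unadjusted limma p under 0.05 (0.0431 and 0.0234), and neither was called. The 11 myeloid markers summed to 10.75 to 10.84 and 10.77 to 10.92, and 1 of them, Itgam, rose by 0.60 (adjusted p = 0.0235). The wild-type mean of Itgam, 7.237, lay below the median of all probe sets (7.81), and its knockout mean was 7.834. That signal was not shown to be above background. The 13 B cell precursor markers summed to 16.73 to 16.76 (wild type) and 16.79 to 16.84 (knockout), without overlap; Pax5 rose by 0.43 and Vpreb2 fell by 0.32 (adjusted p = 0.0127 and 0.045). The 10 stromal and endothelial markers summed to 11.54 to 11.64 and 11.73 to 11.81, and the 1 that passed was Pecam1, which rose by 0.46 (adjusted p = 0.00811). The 5 erythroid and megakaryocyte markers summed to 9.40 to 9.50 and 9.29 to 9.42, and none passed limma; 1 had an unadjusted p under 0.05. The myeloid sums overlapped between the genotypes. Of the 10 stromal and endothelial genes, 4 were higher in the knockout, with a median change of -0.005, and Pecam1 was the brightest (10.59). The part of the shifts in the B cell and stromal sums, and of the rise of Itgam, in the rise of Rasgrp1 was not tested.

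The genes whose pattern over the 6 arrays was most like that of each core gene were found by Pearson's r among the named genes brighter than the median probe set (10326, or 10327 for Rasgrp3). For Rasgrp1 these were Calcrl, a calcitonin receptor-like receptor gene (r = 0.9993), and Fstl1, a follistatin-like gene (r = 0.9991). Both rose in the knockout, by 0.41 and 1.18 (limma adjusted p = 0.00851 and 0.000511), and 495 genes had r above 0.95 with Rasgrp1. For Nras the closest were Acp1 (r = 0.979) and Psmg1 (0.973), for Braf Pgap6 (0.995) and Nemp2 (0.994), and for Map2k1 Esd and Haus4 (0.996 each). Sos1 had no gene above 0.95; its closest were Cog3 (0.938) and Bbs10 (0.934). For Rasgrp3 they were Col3a1 (0.995) and Gpr6 (0.987). With 6 points that share arrays and, for Rasgrp1, the step between genotypes, such values are high for many genes and are given as a description.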

How the data were processed

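Total RNA was biotin-labelled and hybridised to 1-colour arrays, per the labels' protocols. The authors deposited 1 table with log2 values for 35556 probe sets, from 2.58 to 14.7; the submitters' processing notes name RMA and Partek 6.5. The scale was inferred from that range. RMA settings and detection calls: not given in the sources used here. All columns were used, and the number of arrays limits the precision.

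Genotypes came from the sample titles. Gene names came from the platform annotation: 21789 probe sets had 1 gene symbol, 1621 several and 12146 none listed. Only those with 1 symbol stood for genes, and the others entered the fit without a gene name. The comparison was fitted across all probe sets with limma 3.58.1 in R 4.3.3 (lmFit, eBayes without a trend, no covariate, no filter on dim probe sets; 6.23 total degrees of freedom), with Benjamini-Hochberg adjustment over all 35556 probe sets and a threshold of 0.05. Changes are knockout minus wild type, with the moderated SE and 95% interval. The fit was tested on simulated data. Marker signals were summed on the linear scale.

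The named genes were the 7 core genes, their family relatives, each pathway gene that passed plus up to 2 more per list with the smallest p, Etv5, and the 2 genes most like each core gene, leaving out predicted genes. Gene groups named beyond that rule (Plcg2, Prkca, Grb2, Ptpn11, Nf1, Mapk7, Mapk8 and markers) were chosen after their values were seen. The members and lists were chosen with earlier results of these data known. Other settings tried were a block for the sample number, a filter on the dimmest 40% of probe sets, normalization by cyclic loess, quantiles or medians, eBayes with a robust variance trend, array weights, averaging the probe sets of a gene, other thresholds, and each sample left out in turn. RefSeq promoter sequences are those of GRCm38.p6.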

Additional observations from a re-analysis of the deposited data

How the results depend on the processing

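Rasgrp1 was the 1 core gene called in every setting tried. The sample numbers are shared by the genotypes, but the labels do not say whether they pair. Deviations from the group means gave r = -0.12, 0.016 and 0.26 for same-numbered samples. Differently numbered samples gave r from -0.35 to 0.31. With 3 samples per group these values cannot settle pairing, and the main fit did not treat the samples as paired. With the sample number as a replicate block, 544 probe sets passed instead of 1095, and of the pathway genes 1 (Plcg1) instead of 9; Rasgrp1 kept its call (adjusted p = 0.0431). At an adjusted p of 0.01, 538 probe sets and 2 pathway genes passed. Quantile normalization gave 14 pathway genes, 11 higher and 3 lower. Leaving out 1 sample gave 565 to 857 probe sets and 1 to 6 pathway genes. Over 36 named results and their alternatives, 502 values in all, 429 kept their side of the threshold, 56 lost a call and 17 gained one. In 18 values, all of genes that did not pass in either fit, the sign of the difference changed; one is Etv5, at 0.28 in its brighter probe set and -0.078 in the mean of its probe sets. The causes were not tested. No scaling moved the median change by more than 0.1. The absence of detection calls limits what can be said of dim probe sets such as that of Rasgrp3.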
